A study of Rattus norvegicus with 6 samples.

Results

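The neuronal RNA-binding and splicing regulators examined here are 10 genes: the neuronal Hu genes Elavl2, Elavl3 and Elavl4, Nova1 and Nova2, the Rbfox genes Rbfox1, Rbfox2 and Rbfox3, the microexon regulator Srrm4, and Celf4. They were chosen by name, and all 10 were found among the 18625 named genes of the deposited table. RNA of freshly isolated rat pancreatic islets was sequenced in 3 libraries from postnatal animals and 3 from fetuses at embryonic day 19. The postnatal titles all say 2 weeks, while the age labels say postnatal week 2 for replicate 1, week 3 for replicate 2 and week 4 for replicate 3. No genetic change or treatment is named for either group, and nothing in the labels says whether a library came from 1 animal or several. P-values therefore measure the spread between these libraries, which may be technical.

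RNA-binding proteins of this kind sit on short sequence motifs in pre-mRNA or mRNA and decide which exons are kept, how long a message lasts and how well it is translated. They were first studied in neurons, where Hu proteins bind U-rich and AU-rich stretches, NOVA binds YCAY clusters, RBFOX binds UGCAUG and SRRM4 drives the inclusion of very short exons. Islet endocrine cells share part of the neuronal splicing programme: in mouse beta cells the Elavl4 protein (HuD) has been reported to bind insulin mRNA, and in rat and human beta cells Nova1 has been reported to control splicing of exocytosis genes. None of these activities was measured here; the values below are levels of the regulators' own transcripts.

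Expression is given as scaled CPM, the reads of a gene relative to a library size adjusted between libraries. Postnatal libraries held 28.2 to 29.5 M reads and fetal libraries 26.1 to 37.8 M, so 3 reads were worth 0.102 to 0.152 scaled CPM in postnatal and 0.0726 to 0.0925 in fetal libraries. Islet hormone genes took 4.06% to 11.0% of the reads in postnatal libraries and 0.214% to 0.612% in fetal ones, and acinar genes 18.7% to 37.2% and 6.0% to 8.07%, with the highest acinar share in postnatal replicate 1. Fetal replicate 2 stood apart in liver genes, at 0.914% of its reads against 0.0512% and 0.0639% in the other fetal libraries, so alternatives leave it out together with postnatal replicate 1. Mesenchymal genes took 0.482% to 1.29% of postnatal and 0.192% to 0.293% of fetal reads, with 10 of 11 called higher, and 9 of 9 endothelial genes were called higher; the part of these cells in the results was not tested. In such bulk RNA, fewer cells of a type and less RNA per cell cannot be told apart. The main test (limma, log2 of scaled CPM + 1) covered genes with at least 1 scaled CPM in at least 3 libraries, and 5 of the 10 genes passed this filter: Elavl2, Elavl4, Nova1, Nova2 and Rbfox2. Of these 5, 2 were higher after birth, where 30.0% of the 12926 genes tested were called higher, and 1 was lower, where 33.1% were called lower. With 3 of 5 called in either direction against 63.1% of all genes, the share called is near the background and is no property of these regulators; what follows describes which of them moved and by how much.

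The Hu genes moved in opposite directions. Elavl4, encoding HuD, had 6.63, 7.71 and 11.0 scaled CPM in postnatal replicates 1, 2 and 3, against 4.57, 3.80 and 2.44 in fetal replicates 1, 2 and 3. Each postnatal library stood above each fetal one, and the rise was 1.04 ± 0.24 on the log2(value + 1) scale (SE; limma adjusted p = 0.00611), with means of 8.45 ± 2.27 and 3.60 ± 1.08 (SD, n = 3 each). Elavl2, encoding HuB, had 2.53, 3.03 and 3.89 scaled CPM in the postnatal libraries, against 6.39, 5.32 and 5.64 in the fetal libraries. Here each postnatal library stood below each fetal one, and the fall was -0.72 ± 0.17 (limma adjusted p = 0.00633), with means of 3.15 ± 0.689 and 5.78 ± 0.545. Within the postnatal group both genes were lowest in the library labelled week 2 and highest in the one labelled week 4. Of the 5 genes tested, 2 had this order, which 21.0% of all tested genes also had, and the hormone share of the reads had it too (4.06%, 6.45% and 11.0%); its part in the order was not tested.

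The promoters of Elavl4 and Elavl2 are shown because these family members changed in opposite directions, and that of Nova2 because its fold was the largest of the 5 tested genes. Each window runs from 250 bases before to 50 bases after the annotated start, read on the gene's strand, from RefSeq on build GRCr8. Capitals mark exact matches, on either strand, to TTCAGCACC and GGACAGCGC, the left and right parts of the motif of the neuronal gene repressor REST, and to TATAAA and CCAAT.
Elavl4, chr5:130367614-130367913, minus strand: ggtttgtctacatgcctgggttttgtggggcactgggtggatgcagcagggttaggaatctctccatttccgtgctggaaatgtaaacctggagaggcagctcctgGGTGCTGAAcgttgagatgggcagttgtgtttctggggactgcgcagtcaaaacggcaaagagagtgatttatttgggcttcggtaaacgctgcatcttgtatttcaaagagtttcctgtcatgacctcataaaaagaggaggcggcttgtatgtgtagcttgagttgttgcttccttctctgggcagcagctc
Elavl2, chr5:111202238-111202537, minus strand: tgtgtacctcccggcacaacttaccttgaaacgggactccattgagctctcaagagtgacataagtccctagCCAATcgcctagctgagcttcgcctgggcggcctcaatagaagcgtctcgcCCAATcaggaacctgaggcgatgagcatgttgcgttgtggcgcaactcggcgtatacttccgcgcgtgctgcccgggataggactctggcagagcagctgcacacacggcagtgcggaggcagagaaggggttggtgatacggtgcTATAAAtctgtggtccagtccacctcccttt
Nova2, chr1:87700078-87700377, plus strand: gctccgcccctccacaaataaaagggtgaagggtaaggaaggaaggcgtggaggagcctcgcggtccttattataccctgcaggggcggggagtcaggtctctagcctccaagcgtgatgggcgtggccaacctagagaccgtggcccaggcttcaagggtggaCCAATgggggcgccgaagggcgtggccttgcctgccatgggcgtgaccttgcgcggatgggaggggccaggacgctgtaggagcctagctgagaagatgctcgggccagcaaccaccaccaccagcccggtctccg
The Elavl4 window holds the left REST part, on the reverse strand as GGTGCTGAA, which 0.356% of the 33469 promoters of this length hold. The right part (0.415% of promoters) was found in none of the 7 members with an entry in the table, but was found in Srrm3, a relative of Srrm4. The Elavl2 window holds TATAAA (14.2% of promoters), its first base at 19 from the start on the downstream side, and CCAAT (37.5%) and the Nova2 window CCAAT. The matches to these 4 motifs do not overlap one another in the windows shown. CpG dinucleotides numbered 7 in the Elavl4 window, the median of all promoters, against 19 in Elavl2 and 18 in Nova2. A match is a run of letters and shows no binding.

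Elavl3, encoding HuC, was close to the limit of detection. It had 2, 2 and 2 reads in postnatal replicates 1, 2 and 3, against 20, 10 and 9 reads in fetal replicates 1, 2 and 3, or 0.0683 to 0.101 against 0.242 to 0.614 scaled CPM. The groups did not overlap, and fetal replicate 1 was the highest library. Pooled over the libraries, 6 postnatal reads against 39 fetal reads gave a ratio of 0.209, with an exact 95% interval of 0.0725 to 0.498 that covers counting error only. A count test on the recovered reads of all genes with at least 10 reads in the 6 libraries together, which reached 9 of the 10 regulators and was added after the data were seen, gave a log2 fold change of -2.21 (edgeR adjusted p = 0.0169). DESeq2 on the same reads gave -2.26 (adjusted p = 0.0446), and the log-scale model with a filter of 0.1 scaled CPM in 1 library gave -0.34 ± 0.11 (limma adjusted p = 0.0346). The edgeR call ended without postnatal replicate 2 (-2.10; edgeR adjusted p = 0.0612) and without postnatal replicate 3 (-2.12; edgeR adjusted p = 0.0583), at nearly the same fold. Elavl3 reached the filter of 10 reads only through the fetal group, where it was high. Elavl genes share stretches of coding sequence, so reads could be split among them in the counting.

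**Figure D1:**
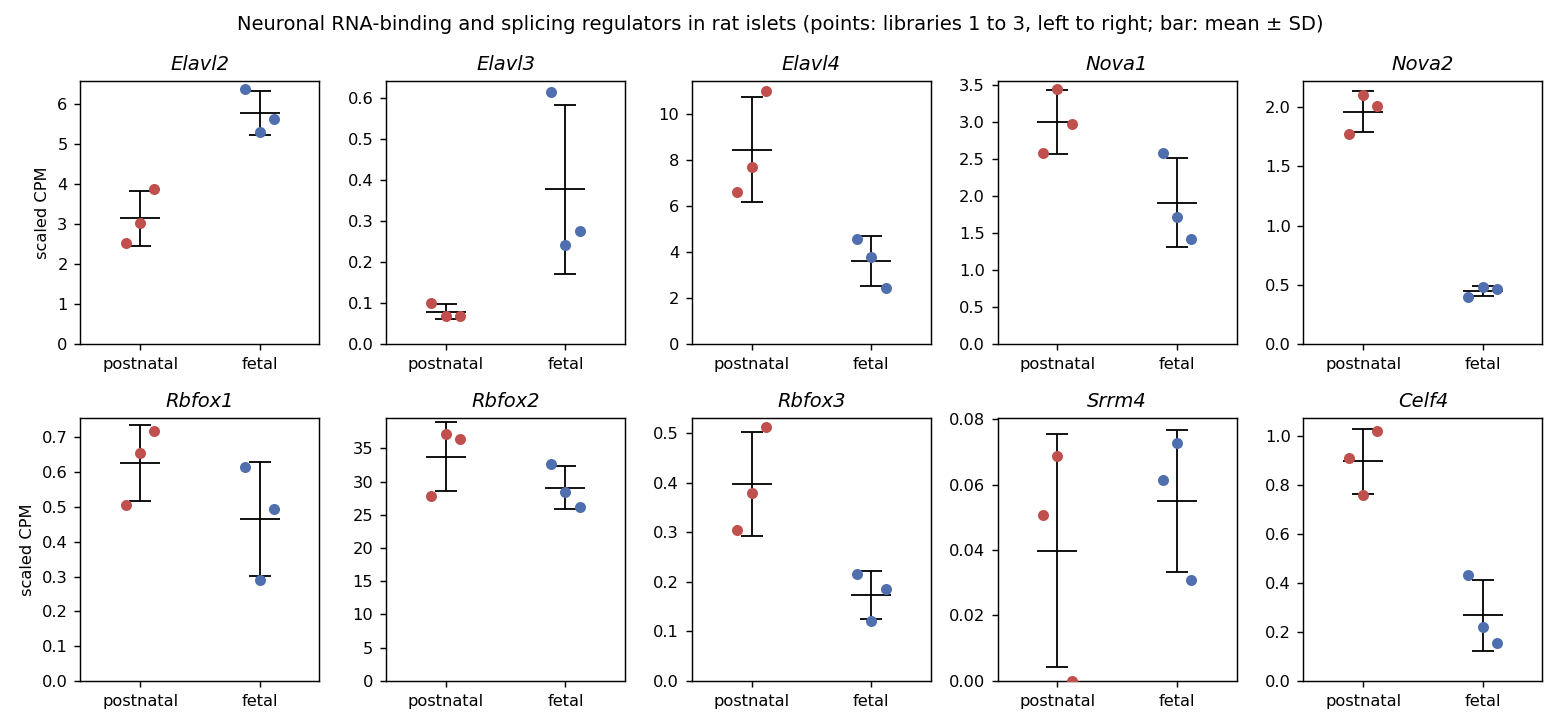
Scaled CPM (y axis, from 0, a scale of its own in each panel) of the 10 regulators in postnatal (red) and fetal (blue) islet libraries; points are libraries, bars the mean ± SD of 3. Elavl4, Nova2, Rbfox3 and Celf4 stood higher and Elavl2 and Elavl3 lower in every postnatal library, Nova1 nearly touched between groups, and Rbfox1, Rbfox2 and Srrm4 overlapped.

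Nova2 rose and Nova1 did not pass the test. Nova2, a KH-domain splicing regulator best known from cortical neurons, had 1.77, 2.10 and 2.01 scaled CPM in the postnatal libraries, against 0.399, 0.484 and 0.462 in the fetal libraries. Postnatal libraries were tightly grouped and far above the fetal ones: means were 1.96 ± 0.170 and 0.449 ± 0.0441, a ratio of means of 4.37, and the log2(value + 1) difference was 1.03 ± 0.14 (limma adjusted p = 0.000583). The gene passed the filter only through the group in which it was high, but the count test, whose filter sums both groups, called it as well (log2 fold change 2.12; edgeR adjusted p = 0.000746), on 35, 61 and 59 postnatal and 13, 20 and 15 fetal reads. Nova1, the family member with a reported splicing role in rat beta cells, had 2.58, 3.44 and 2.97 scaled CPM in the postnatal libraries, against 2.58, 1.72 and 1.42 in the fetal libraries. Postnatal replicate 1 and fetal replicate 1 had the same value to 3 digits, and the difference of 0.48 ± 0.19 did not pass (limma adjusted p = 0.0589). It passed without fetal replicate 1 (0.64; limma adjusted p = 0.0212) and without postnatal replicate 1 (0.55; limma adjusted p = 0.0464), and across all alternatives the adjusted p lay between 0.0212 and 0.514.

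The Rbfox genes held no change that stood under every tool. Rbfox2, which many tissues express, had 27.8, 37.1 and 36.4 scaled CPM in postnatal libraries, against 32.6, 28.4 and 26.2 in fetal libraries. The groups overlapped, and the difference of 0.20 ± 0.14 did not pass (limma adjusted p = 0.243). Postnatal replicate 1, the library with the highest acinar share, was the low one, and without it the difference was 0.33 (limma adjusted p = 0.0447). Rbfox1, the brain and muscle member, had 10, 19 and 21 reads in postnatal libraries and 20, 12 and 16 in fetal ones, which also overlapped (log2 fold change 0.44; edgeR adjusted p = 0.390). Rbfox3, known as the neuronal nuclear antigen NeuN, had 6, 11 and 15 postnatal reads and 7, 5 and 6 fetal reads, or 0.304 to 0.512 against 0.121 to 0.215 scaled CPM. Its scaled values did not overlap, and the pooled ratio was 2.42 (exact 95% interval 1.32 to 4.58, counting error only). The log-scale model with a looser filter, at least 0.1 scaled CPM in 1 library, gave 0.25 ± 0.09 (limma adjusted p = 0.0430), whereas the count tests gave log2 fold changes of 1.21 (edgeR adjusted p = 0.0557) and 1.23 (DESeq2 adjusted p = 0.166), neither of which passed.

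Celf4, at a low level, rose after birth, and Srrm4 was hardly detected. Celf4, a CELF-family protein of neurons that binds many synaptic mRNAs, had 0.911, 0.757 and 1.02 scaled CPM in postnatal libraries, from 18, 22 and 30 reads, against 0.430, 0.218 and 0.154 in fetal libraries, from 14, 9 and 5 reads. Each postnatal library was above each fetal one, with means of 0.898 ± 0.134 and 0.267 ± 0.144. The count tests gave log2 fold changes of 1.74 (edgeR adjusted p = 0.0146) and 1.76 (DESeq2 adjusted p = 0.00923), and the looser filter 0.59 ± 0.11 (limma adjusted p = 0.00378), smaller because 1 is added to each value. Leaving out each library in turn left an edgeR adjusted p of at most 0.0489. Srrm4 had 1, 2 and 0 reads in postnatal and 2, 3 and 1 in fetal libraries. Its pooled ratio of 0.681 has a counting interval of 0.110 to 3.19, so neither a rise nor a fall was detectable at this depth. With 9 reads in all it entered no test across genes. Its ratio to Srrm3 is among the pairs of related genes compared here. On the log2 scale, with 0.5 reads added, it was -6.84 ± 1.57 in postnatal and -3.78 ± 0.30 in fetal libraries (SD, n = 3 each, exact permutation p = 0.1). The size of this difference, -3.06, depended on the reads added: it was -3.79 with 0.1 and -2.19 with 5. Without postnatal replicate 3, which had 0 Srrm4 reads, it was -2.16. Srrm3 itself rose, so the ratio shows no change of Srrm4. Other scalings of the libraries were not run for Elavl3, Rbfox1, Rbfox3 and Celf4, which were below the main filter.

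Of the 9 regulators the count test reached, 3 were called higher (Elavl4, Nova2 and Celf4), 2 lower (Elavl2 and Elavl3) and 4 did not pass, where that test called 27.4% of 15522 genes higher and 28.4% lower (55.9% in either direction). With the looser filter the log-scale model called 4 higher, with Rbfox3 added, and 2 lower, against 26.7% and 27.8% of 15823 genes (54.5% in either direction). The scaled values did not overlap between groups in 4 of the 5 genes of the main test and in 7 of all 10, with Nova1 apart by less than the digits printed here; of all tested genes 33.1% did not overlap and were higher, 36.9% lower, 70.0% in all. Among fetal libraries replicate 1 held the highest value of 8 of the 10 genes; among postnatal libraries replicate 3 held the highest of 5, replicate 2 of 4 and replicate 1 of 1. Replicate 3 had the highest hormone share of the postnatal libraries, 11.0%, and replicate 1 the lowest, 4.06%. Among fetal libraries the hormone share was highest in replicate 2, at 0.612%, and was 0.445% in replicate 1. The part of the hormone share in these orders was not tested. How many of all genes had the same orders was not counted, so they are not read as a property of the regulators.

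**Figure D2:**
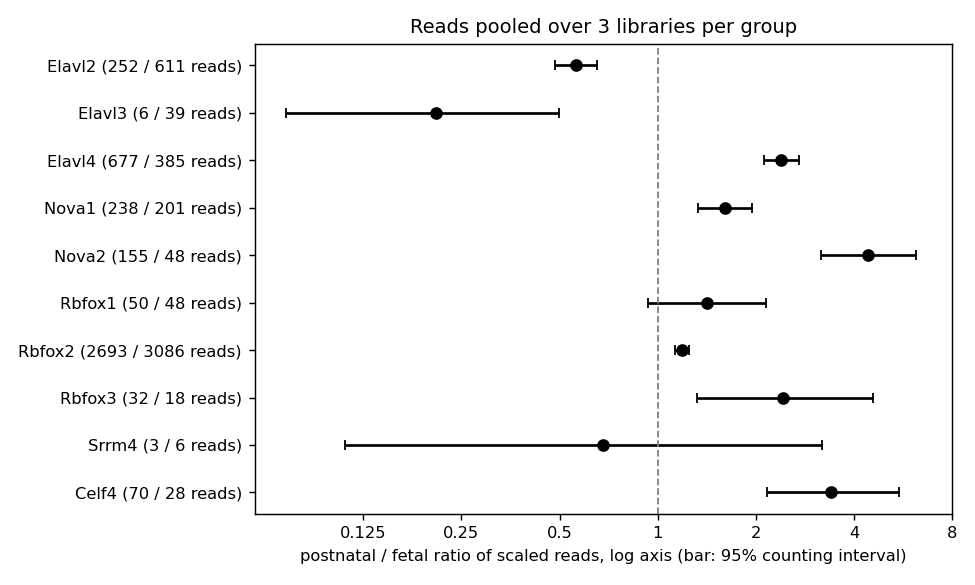
Ratio of scaled reads, postnatal over fetal (x axis, log scale), for each regulator with reads pooled over 3 libraries per group; bars are exact 95% intervals that cover counting error and not the spread between libraries, and the labels give postnatal and fetal reads. Nova2 (4.40) and Celf4 (3.40) had the highest ratios and Elavl3 (0.209) the lowest, and the intervals of Rbfox1 and Srrm4 include 1.

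Ratios of related genes within a library do not depend on how libraries are scaled, and 12 such pairs were compared as log2 ratios of reads with 0.5 added. The log2 ratio of Elavl2 to Elavl4 was -1.38, -1.34 and -1.49 in postnatal libraries, against 0.48, 0.49 and 1.21 in fetal libraries, a difference of -2.13 (2-sided exact permutation p = 0.1). Every postnatal library thus had a lower share of Elavl2 relative to Elavl4 than any fetal library. The Nova2 to Nova1 ratio differed by 1.41, at -0.60 ± 0.09 in postnatal and -2.01 ± 0.56 in fetal libraries (SD, n = 3 each; exact permutation p = 0.1). The Rbfox3 to Rbfox2 ratio differed by 0.95 (exact permutation p = 0.1) and the Rbfox1 to Rbfox2 ratio by 0.27 (exact permutation p = 0.7). Elavl1, encoding the ubiquitous Hu protein HuR, served as a family member that is not neuron-restricted: relative to it Elavl4 was higher by 2.03 (exact permutation p = 0.1), while Elavl2 differed by -0.10 (exact permutation p = 0.8). For 9 of the 12 pairs the groups did not overlap and p was 0.1, the smallest value that 3 libraries against 3 allow, or 0.133 after Benjamini-Hochberg adjustment over the pairs, so none passed. Several of these pairs share a gene. Elavl3 had 2 reads in each postnatal library, and its ratios depended on the reads added. With 5 instead of 0.5, the Elavl3 to Elavl1 difference was -0.07 rather than -1.10, and that of Elavl3 to Elavl4 was -2.07 rather than -3.13.

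**Figure D3:**
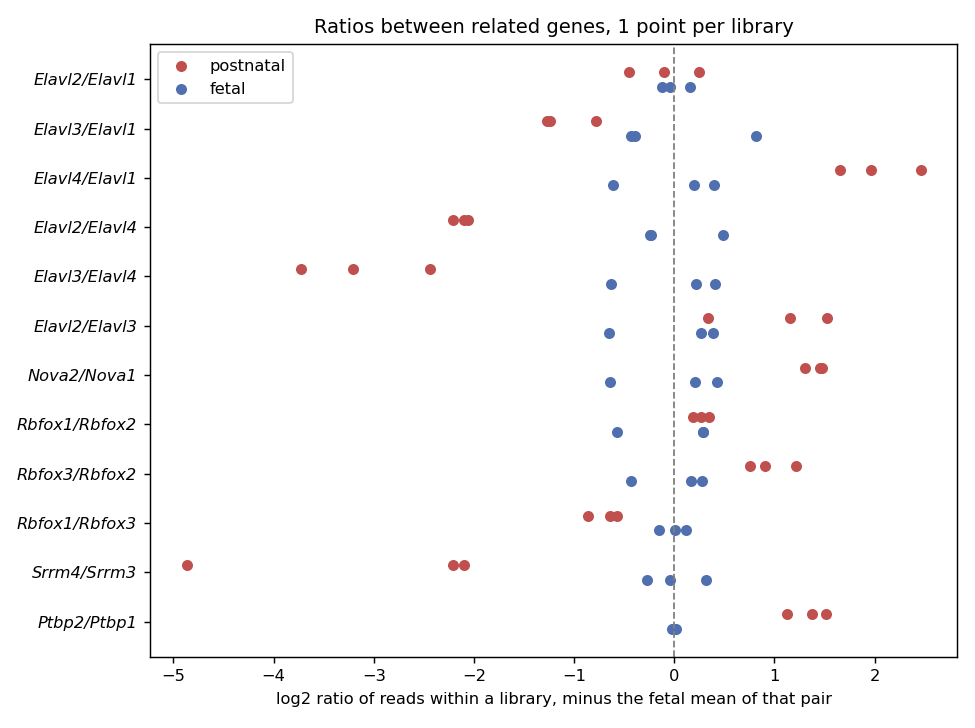
Log2 ratio of reads of related genes within a library, minus the fetal mean of the pair (x axis), with postnatal libraries (red) above fetal libraries (blue) for each of 12 pairs. Elavl2/Elavl4, Elavl4/Elavl1, Nova2/Nova1 and Ptbp2/Ptbp1 were separated between groups, whereas Elavl2/Elavl1 and Rbfox1/Rbfox2 overlapped.

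Relatives and antagonists of these regulators changed in both directions. Srrm3, the relative of Srrm4 that is active in endocrine cells, had 4.45, 5.44 and 6.86 scaled CPM in postnatal libraries, against 1.26, 1.19 and 0.493 in fetal libraries. It rose by 1.74 ± 0.22 (limma adjusted p = 0.000386) with no overlap. Ptbp1, a repressor of neuronal exons, had 210, 184 and 170 scaled CPM in postnatal libraries, against 392, 396 and 413 in fetal libraries, and fell by 1.09 on the log2(value + 1) scale (SE 0.11; limma adjusted p = 0.000168). Its neuronal relative Ptbp2 stood at 33.6 ± 1.09 and 28.5 ± 0.461 (0.23 ± 0.09; limma adjusted p = 0.0536), so that the log2 ratio of Ptbp2 to Ptbp1 was -2.48 ± 0.20 in postnatal and -3.81 ± 0.02 in fetal libraries (difference 1.33; exact permutation p = 0.1). The Ptbp2 difference depended on the scaling: it passed as higher with the upper quartile (0.34; limma adjusted p = 0.0094) and without the 20 highest genes (0.46; limma adjusted p = 0.00605), and was -0.11 with total reads and -0.95 relative to the pan-endocrine factors. DESeq2 on the reads gave 0.25 (adjusted p = 0.0479). Elavl1 fell by 0.78 on the log2(value + 1) scale (SE 0.09; limma adjusted p = 0.000272), at 84.5 ± 3.11 against 146 ± 8.55 scaled CPM. The differences of Ptbp1, Elavl1 and Srrm3 kept their direction under all 7 scalings shown. That of Srrm3 did not pass relative to the pan-endocrine factors, on the log2(value + 1) scale that shrinks changes of low genes.

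The scaling of the libraries decided the direction or the call of several regulators. Of 6 panel transcription factors of endocrine cells, 5 were in the table; Neurod1 (1.74 ± 0.21), Pax6 (1.61 ± 0.22), Isl1 and Rfx6 rose and Nkx2-2 did not pass. Set against the mean log2 level of these 5 genes in the same library, Elavl4 stood at -2.21, -2.27 and -2.27 in postnatal libraries, against -2.01, -2.0 and -2.31 in fetal libraries, and Nova2 at -3.67, -3.76 and -4.26 against -4.00, -3.69 and -3.55. On the log2(value + 1) scale used, both overlapped between groups, with differences of -0.14 and -0.15. Adding 1 shrinks changes of low genes more than those of the panel genes. Nova2 rose by 1.03 on this scale but 2.12 by edgeR, and Srrm3 by 1.74 but 2.51. Pax6 of the panel rose by 1.61 and 1.67. The panel differences of Nova2 and Srrm3 are therefore too low, and the overlap and sign of Nova2 cannot be relied on. Counts relative to the panel lean towards lower for low genes. Elavl2 relative to the panel stood at -3.32, -3.38 and -3.56 in postnatal and -1.60, -1.60 and -1.36 in fetal libraries, a larger gap than without the panel. Relative to the panel the difference was -0.98 for Rbfox2 and -0.71 for Nova1, with every postnatal library below every fetal one, and 0.56 for Srrm3, which did not pass (limma adjusted p = 0.0783). The median of all genes was -1.21 relative to the panel, -0.35 with total-read scaling and 0.20 without the 20 highest genes, beside -0.03 as deposited. With total reads, the difference of Elavl4 was 0.75 and did not pass (limma adjusted p = 0.0829), and that of Rbfox2 turned to -0.14; without the 20 highest genes, Nova1 passed (0.64; limma adjusted p = 0.0365).

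**Figure D4:**
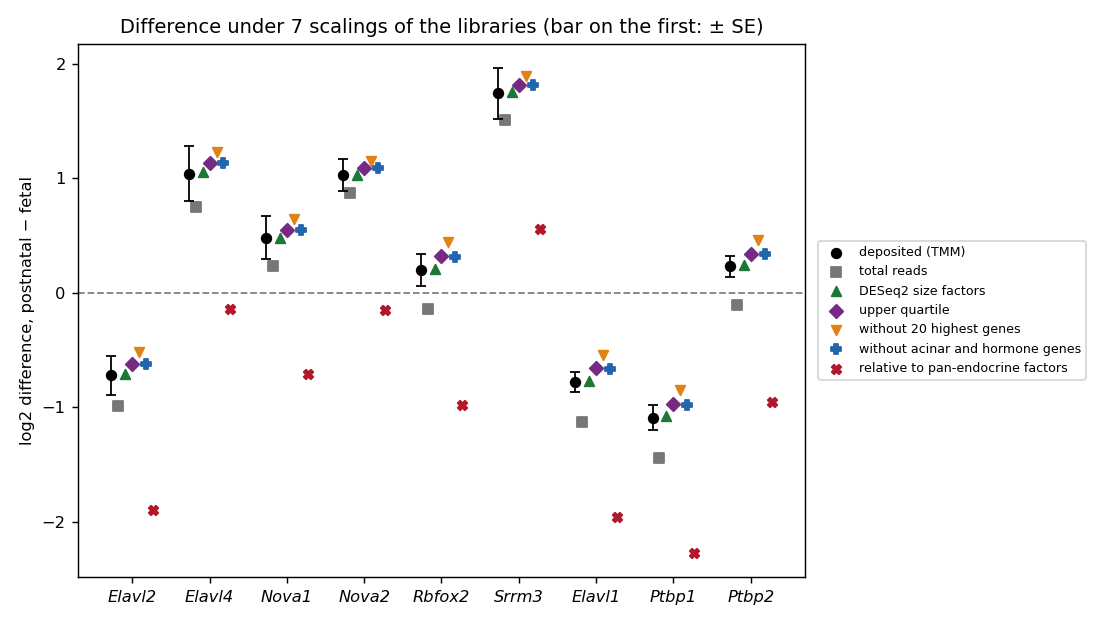
Log2 difference, postnatal minus fetal (y axis), of the 5 regulators in the main test and 4 related genes under 7 scalings of the libraries; bars are ± SE of the deposited scaling. Elavl2, Elavl1 and Ptbp1 lay below 0 and Srrm3 above 0 under every scaling drawn, while Elavl4 (1.04) and Nova2 (1.03) lay at -0.14 and -0.15 relative to the pan-endocrine factors. Values are on the log2(value + 1) scale, which shrinks changes of low genes such as Nova2 more than those of the panel, so its panel value is too low.

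Other splicing regulators, a list that also holds broadly expressed genes such as Elavl1, moved in both directions. Of 26 tested, 9 rose, 11 fell and 6 did not pass, with a median of 0.02 beside -0.03 for all genes. The largest rises were those of Srrm3 and of Celf3, a brain-enriched CELF gene, at 56.6 ± 14.8 against 18.7 ± 4.02 scaled CPM (1.53 ± 0.22; limma adjusted p = 0.000659). The largest falls were those of Raver2, encoding a partner of PTB proteins, at 3.39 ± 0.310 against 13.0 ± 0.580 (-1.67 ± 0.13), and of the epithelial splicing regulator gene Esrp2, at 46.8 ± 22.1 against 108 ± 4.75 (-1.29 ± 0.28). Of 13 other mRNA-binding genes studied in neurons, 4 rose, 4 fell and 5 did not pass, with a median of 0.10. Cpeb1, which controls cytoplasmic polyadenylation, had 6.02, 8.78 and 12.5 scaled CPM in postnatal libraries, against 0.461, 0.532 and 0.247 in fetal libraries (2.79 ± 0.24; limma adjusted p = 8.45e-05), having passed the filter only through the postnatal group, and Cpeb4 rose by 0.91 ± 0.15. Igf2bp1 and Igf2bp2, RNA-binding genes of fetal tissues, fell by 3.50 (SE 0.20) and 2.82 (SE 0.16) on the log2(value + 1) scale, and edgeR on the reads gave log2 fold changes of -4.47 and -2.94. Relative to the endocrine panel, 0 and 1 genes of these lists were higher and 20 and 9 lower; without the 20 highest genes, 12 and 7 were higher and 9 and 4 lower. In the same libraries the 10 proliferation genes tested all fell, with a median of -2.54, and erythroid genes had a median of -2.29; their part in these falls was not tested.

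REST represses many neuronal genes outside the nervous system. Rest had 40.9, 38.7 and 33.9 scaled CPM in postnatal libraries, against 52.0, 41.3 and 41.6 in fetal libraries, and the difference of -0.24 ± 0.13 did not pass (limma adjusted p = 0.135); without the 20 highest genes it was 0.00 to 2 decimals, with total reads it was -0.58 and passed (limma adjusted p = 0.0443), and relative to the endocrine panel it was -1.42. Of 9 genes of REST and its cofactors tested, 2 rose, 4 fell and 3 did not pass, with a median of -0.27. Relative to the endocrine panel 0 were higher and 7 lower. With the deposited scaling, the histone reader gene Phf21a (0.71 ± 0.12) and the corepressor gene Rcor3 (0.61 ± 0.12) rose, and the deacetylase genes Hdac2 (-0.70 ± 0.10) and Hdac1 (-0.67 ± 0.10) fell.

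Nerve fibres and glia can travel with isolated islets, so their markers are given beside the regulators. Of 12 peripheral neuron markers present, 7 were tested, of which 3 rose, 1 fell and 3 did not pass (median 0.45). Vip, a neuropeptide gene, rose to 3.96 ± 1.42 in postnatal libraries, against 0.478 ± 0.283 scaled CPM in fetal ones, and Dbh, the noradrenaline-synthesis enzyme gene, to 2.22 ± 0.224, against 0.260 ± 0.134. Ret, the receptor gene for GDNF ligands, fell by 1.11 on the log2(value + 1) scale (SE 0.13). The summed level of the list was 98.3 to 116 in postnatal and 150 to 193 in fetal libraries, and without Ret, which held most of it, 29.4 to 47.6 and 19.4 to 26.5. Chat, the acetylcholine-synthesis enzyme gene, was at 0 in 1 postnatal and 2 fetal libraries and Phox2a and Th were at most 0.432 scaled CPM in any library; none of the 12 was at 0 in all. Of 12 genes shared by neurons and endocrine cells, 10 rose, 1 fell and 1 did not pass, with a median of 1.02 and sums of 303 to 480 against 154 to 209. Mapt, encoding tau (1.44 ± 0.18), and Dcx, encoding doublecortin (1.43 ± 0.22), rose; the growth cone gene Gap43 fell (-0.81 ± 0.22), a call lost without the 20 highest genes and without fetal replicate 2 and postnatal replicate 1 together. Of 10 glial genes, 6 rose, 2 fell and 2 did not pass, with sums of 115 to 159 against 108 to 138. Ncam1, also among the shared genes, and Erbb3 held much of these sums. Ncam1 had 42.6 to 63.9 scaled CPM in postnatal and 32.0 to 47.4 in fetal libraries, and Erbb3 had 21.6 to 29.9 and 47.7 to 67.7. The sums therefore do not show how the other glial genes moved. Cdh19, a Schwann lineage cadherin gene (1.89 ± 0.28), rose, and Gfap (-1.73 ± 0.17) and Erbb3 (-1.01 ± 0.17) fell. Vip, Dbh, Mapt and Cdh19 passed the filter only through the postnatal group and Gfap only through the fetal group. Relative to the endocrine panel, on the log2(value + 1) scale, 0 peripheral neuron markers, 0 shared genes and 2 glial genes were higher, and 4, 2 and 4 were lower. Adding 1 shrinks changes of low genes more than those of the panel. Dbh, Vip and Mapt had edgeR log2 fold changes of 3.06, 3.04 and 2.63, but 1.36, 1.72 and 1.44 on that scale. These counts therefore cannot show whether such markers rose more than the panel. The part of these cells in the values of the 10 regulators was not tested.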

How the data were processed

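Total RNA of freshly isolated rat islets was made into stranded, rRNA-depleted libraries, per the labels' protocols. The submitters' processing notes list TopHat2 2.0.8b and edgeR 3.30.3 and give no roles. Counter, strand setting, build and annotation: not given in the sources used here. Reads of overlapping and antisense genes therefore cannot be told apart.

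The authors deposited 1 table of a normalized signal per gene, with no unit in its header. Each value is a whole number of reads times 1 constant per library (100% of values whole within 0.001 reads). The constants imply factors of 0.677 to 1.25, and TMM factors recomputed from the reads gave the same 6 numbers, so the deposited signal is called scaled CPM. A row with no gene name held 1 to 9 reads per library and was left out of the tests.

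Samples were grouped by title. The test was a 2-sided limma 3.58.1 fit (R 4.3.3, mean-variance trend, group as the only term) of log2(value + 1), with Benjamini-Hochberg adjustment over all genes tested and a threshold of 0.05. The design assumed normalized values; edgeR 4.0.16 and DESeq2 1.42.0 on the recovered reads were alternatives. Gene members, lists and the rule for other named genes (related genes of the pairs, Rest, and the 2 largest called changes in each direction of 7 lists; Isl1, Rfx6, Nkx2-2, Phox2a, Th and Chat were named after their values were seen) were chosen with earlier results of these data known; 1 gene that this rule names is not reported here. The fits were also run on 10 sets of simulated reads. In these few genes changed, the spread between libraries was set alike for all genes and the composition did not shift. The libraries here differ from that setting, so the simulation does not show how the fits perform on them. Within groups, counts of library pairs gave a chi-square over its degrees of freedom of 45.6 to 370, beyond sampling noise. Marker shares are exact to 0.0175 percentage points (Wilson 95% intervals), and intervals cover counting error only. Alternatives were 3 pseudocounts, 2 filters, 6 scalings, a robust trend, the replicate number or the labelled week as a term, and libraries left out.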

Additional observations from a re-analysis of the deposited data

How the results depend on the processing

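Under the 25 alternatives that gave Elavl2 a value, its fall stayed called (adjusted p at most 0.0445). Elavl4 and Nova2 stayed called except under scalings: Elavl4 with total reads (0.75; adjusted p = 0.0829) and both relative to the pan-endocrine factors, where they turned to -0.14 and -0.15. That scaling also turned Nova1 to -0.71 and Rbfox2 to -0.98, and total reads turned Rbfox2 to -0.14. Adding 1 before the log shrinks changes of low genes more than those of the panel. The panel value of Nova2 is therefore too low, its sign cannot be relied on, and counts relative to the panel lean towards lower. Relative to the panel 0 of the regulators were higher and 3 lower, and of all genes 669 were higher and 9540 lower, against 3874 and 4278 as reported; the panel's own error is shared by every gene, so p-values under it are too small. Total reads gave 1 regulator and 1856 genes higher. The looser filter, which tests more genes, called 4 regulators higher and 2 lower, and the stricter one, which drops the Nova genes, 1 higher. Elavl4 passed the stricter filter, at least 5 scaled CPM in 3 libraries, only through the postnatal group, and Elavl2 only through the fetal group. Their calls under that filter, counted among the alternatives above, are therefore no added support. Leaving out each library in turn gave 3252 to 4005 genes higher and 3634 to 4470 lower, with 2 to 4 regulators higher (4 without postnatal replicate 1, when Nova1 and Rbfox2 passed) and 1 lower. With each library left out in turn, the log2 ratio difference ran from -0.27 (without postnatal replicate 3) to 0.07 (without postnatal replicate 1) for Elavl2/Elavl1, and from -0.02 (without fetal replicate 2) to 0.41 (without fetal replicate 1) for Rbfox1/Rbfox2; the cause was not tested.

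Same-numbered libraries did not deviate together (r of -0.21, 0.10 and -0.25 across genes for replicates 1, 2 and 3). Libraries with different numbers gave r of -0.36 to 0.43. With 3 libraries per group, each set against its group mean, these values cannot decide whether same-numbered libraries were paired. With the replicate number as a block, 3563 genes were higher and 3863 lower, and 2 regulators higher and 1 lower.

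Depth limits Srrm4, Elavl3, Rbfox1, Rbfox3 and Celf4, with 9 to 98 reads each over all libraries. Shares of the scaled total equal shares of reads, since each library has 1 constant.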
